A study of Mus musculus with 39 samples.

Results

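Oxidative phosphorylation subunits are the proteins that build the 5 enzyme complexes of the inner mitochondrial membrane. Complexes I to IV pass electrons from NADH and succinate to oxygen. Complexes I, III and IV also pump protons, and complex V uses the proton gradient to make ATP. Most subunits are coded in the nucleus and imported, while a small set of core subunits of complexes I, III, IV and V is coded by mitochondrial DNA and transcribed inside the organelle. Complex II, succinate dehydrogenase, is coded by the nucleus alone and is also an enzyme of the citric acid cycle. In lung macrophages the balance of respiration and glycolysis is known to differ between cell states. The members were chosen by gene symbol, as the protein-coding genes named for subunits of the 5 complexes, and the rule itself uses no expression value, although the set was taken up with earlier results of these data known. The rule found 98 of the 43430 genes of the count table. They comprised 85 nuclear genes (37 of complex I, 4 of complex II, 9 of complex III, 18 of complex IV and 17 of complex V) and 13 mitochondrial genes, whose symbols begin with mt- (7 of complex I, 1 of complex III, 3 of complex IV and 2 of complex V). Nuclear members were placed in a complex by symbol: Nduf for I, Sdh for II, Uqcr and Cyc1 for III, Cox for IV and Atp5 for V. A symbol need not match the complex in which the protein works, so Ndufa4 and Ndufa4l2, for example, stand under complex I by name alone.

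The data were 39 poly(A)-selected RNA-seq libraries, each made from 3 ng of total RNA. The cells were flow-sorted from lungs of C57BL/6J mice, for which no transgene or mutation is named. Monocytes came from naive mice, and Siglec F-low alveolar macrophages, which the series calls monocyte-derived, came from animals after bleomycin, which damages lung tissue and leads to scarring. Both ages, young and old, were treated with saline or with ISRIB. This compound inhibits the integrated stress response, a pathway that lowers protein synthesis under stress. This gave 8 groups, with 5 libraries each in young saline, young ISRIB, old saline and old ISRIB monocytes, 5 each in young saline, old saline and old ISRIB macrophages, and 4 in young ISRIB macrophages. Young means 8 to 12 weeks in the sample labels but 3 to 5 months in the series' design, and old means over 18 months in the labels and 18 to 24 months in the design. Treatment was intraperitoneal, daily from day 7, and cells were taken on day 21 after bleomycin. No timing is given for naive mice. Because every macrophage library came from a bleomycin-treated mouse and every monocyte library from a naive mouse, cell type and bleomycin cannot be told apart. The labels do not say that the libraries of a group came from separate animals, so the p-values measure the spread between these samples. In bulk libraries, fewer cells of a type and less RNA per cell also cannot be told apart.

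Library totals ran from 4595331 to 16056708 counts, and 12324 to 17313 genes had at least 1 count. Among markers of classical monocytes, Ly6c2, a surface protein, averaged 483 CPM (counts scaled to 1000000 per library) in monocytes and 1.74 CPM in macrophages, and Ccr2, Plac8 and Vcan went the same way. Chil3, which is also a marker of mature alveolar macrophages, went the other way and averaged 1075 and 6132 CPM. In contrast, Spp1, the osteopontin gene, averaged 1.95 CPM and 10108 CPM. The summed level of 9 markers of monocyte-derived alveolar macrophages ran from 1288 to 3047 CPM in monocytes and from 15883 to 32570 CPM in macrophages. The fourth young saline monocyte library stood apart in the genes described here. It had the fewest counts (4595331) and the fewest genes detected (12324). Its CPM was the highest of the 20 monocyte libraries for 49 of 79 tested nuclear members (62.0%), against 2449 of 12170 genes tested in monocytes (20.1%), and its sums of the monocyte-derived macrophage markers (3047 CPM) and of 8 dendritic cell markers (310 CPM) were also the highest of the 20, where the other libraries reached 2940 CPM and 254 CPM. The part of its depth and of these markers in its values was not tested. Values without it are given beside the results that it moves most.

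Of the 13 mitochondrial genes, 7 had counts throughout and 6 had almost none. Over all 39 libraries, mt-Co1, the catalytic subunit of complex IV, collected 1610754 counts, mt-Cytb, the only complex III subunit coded in mitochondria, 618996, and the complex I subunits mt-Nd5, mt-Nd1, mt-Nd2, mt-Nd4 and mt-Nd6 511248, 492649, 301108, 230451 and 159083. In contrast, mt-Co2, mt-Atp6, mt-Atp8 and mt-Nd4l had 0 counts, mt-Co3 had 1 and mt-Nd3 had 74. The 6 genes lie side by side on the mitochondrial chromosome (GRCm38), from mt-Co2 at chrM:7013-7696 to mt-Nd4l at chrM:9877-10173. Of these 6 genes, 5 have a copy annotated as an unprocessed pseudogene in a stretch of nuclear chromosome 1. Gm28661 (chr1:24614885-24615565) matched mt-Co2 over 681 bases, Gm10925 (chr1:24613974-24614651) matched mt-Atp6 over 678 bases and Gm28437 (chr1:24613189-24613971) matched mt-Co3 over 783 bases, each with 0 mismatches. Gm10222 matched mt-Nd4l over 294 bases with 0 mismatches, and Gm28438 matched mt-Nd3 over 345 bases with 1 mismatch, T3C (the mitochondrial base first, position counted from 1 at the start of the coding sequence). These 5 copies themselves held 10 to 23 counts each. The first 60 bases of 3 of the genes are given because they are the same in gene and copy, so that a read from this stretch matches both places.
mt-Co2 (chrM:7013-7072) and Gm28661: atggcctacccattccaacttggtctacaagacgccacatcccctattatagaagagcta
mt-Atp6 (chrM:7927-7986) and Gm10925: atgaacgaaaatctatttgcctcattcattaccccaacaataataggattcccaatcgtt
mt-Co3 (chrM:8607-8666) and Gm28437: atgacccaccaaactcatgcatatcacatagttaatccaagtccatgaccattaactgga

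The share of 50-base words also found in the chromosome 1 copy was 99.5% for mt-Co2, 99.5% for mt-Atp6, 99.9% for mt-Co3, 98.0% for mt-Nd3 and 98.8% for mt-Nd4l. For mt-Nd4, whose first 876 of 1378 bases equal Gm28439, it was 62.2%, and mt-Nd4 had its 230451 counts. mt-Co1 shared 51.1% of its words with other annotated transcripts. mt-Atp8 (chrM:7766-7969), a short gene between mt-Co2 and mt-Atp6 that overlaps the start of mt-Atp6, also had 0 counts. It shared no word with an annotated transcript, but the search covered annotated transcripts alone. On chromosome 1 the copies of its 2 neighbours, Gm10925 (ending at 24614651) and Gm28661 (starting at 24614885), have bases between them. Those bases were not compared with mt-Atp8. How the counting treated reads with several matches is not given in the sources used here, and the part of the shared sequence in these 0 counts was not tested. For complex V, therefore, no mitochondrially coded subunit was measured, and the mitochondrial values below are those of 5 complex I genes, mt-Cytb and mt-Co1. Among nuclear members, 21 of 85 share at least 10% of their words with other genes, among them Ndufs3, Ndufs5, Ndufa12, Ndufb6, Ndufb11, Uqcrb, Uqcrc2, Cox4i1, Cox5a, Cox7a2l, Atp5g1, Atp5g2 and Atp5o, whose counts are uncertain to that degree. In all, 86 of the 98 members passed the filter on low counts in each fit, 79 nuclear and 7 mitochondrial. The other 12 were the 6 mitochondrial genes above and Cox4i2, Cox6a2, Cox7b2, Cox8b, Cox8c and Ndufa4l2, isoforms known for use in particular tissues or conditions.

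For the nuclear members, promoter windows of 250 bases before to 50 after the start were read from the RefSeq table (GRCm38.p6), in which 68 of 85 members matched. The motif of NRF1, a transcription factor known for driving many respiratory chain genes, was searched on both strands as GCGCA, any base and GCGC, and occurred in the windows of 17 of 68 members (25%), against 1254 of 17491 protein-coding genes (7.17%). The motif of ETS factors, CCGGAAGT, searched in the same way, occurred in 5 members (7.35%, against 5.69%). Neither motif contains the other. A motif of the factor YY1, also searched, occurred in 4 members (5.88%), against 185 of 17491 protein-coding genes (1.06%). A match describes the letters of the window and not a bound site. The 4 stretches below hold NRF1 matches, in capitals. They are shown because the first 3 belong to genes that were higher in macrophages in every comparison below and the fourth, Ndufa11, does not.
Sdhd (chr9:50603869-50603948, minus strand): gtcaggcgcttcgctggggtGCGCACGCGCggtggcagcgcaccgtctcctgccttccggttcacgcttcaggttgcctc
Ndufs5 (chr4:123718225-123718304, minus strand): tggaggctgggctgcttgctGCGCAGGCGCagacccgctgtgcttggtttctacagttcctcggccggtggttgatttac
Cox6a1 (chr5:115349046-115349140, minus strand): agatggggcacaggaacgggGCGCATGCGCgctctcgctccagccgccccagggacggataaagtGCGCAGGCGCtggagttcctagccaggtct
Ndufa11 (chr17:56717682-56717761, plus strand): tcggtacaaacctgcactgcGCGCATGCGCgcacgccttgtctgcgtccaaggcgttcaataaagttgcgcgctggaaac

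Macrophages gave more of their counts to the mitochondrial protein-coding genes than monocytes did. The 7 counted mt- genes made up 0.897% ± 0.126 of counts (SD, n = 20) in monocytes, from 0.580% to 1.23%, and 1.44% ± 0.117 (SD, n = 19) in macrophages, from 1.14% to 1.59%. Of the 19 macrophage libraries, 18 lay above every monocyte library. By group the share was 0.806% in young saline, 0.932% in young ISRIB, 0.950% in old saline and 0.900% in old ISRIB monocytes, and 1.46%, 1.52%, 1.30% and 1.49% in the corresponding macrophages, so that the ratio of means was 1.81, 1.63, 1.37 and 1.66. The libraries of the 2 cell types overlapped only in old saline mice. Without the fourth young saline monocyte library, at 0.580%, the young saline ratio was 1.69. The share of the mitochondrial ribosomal RNA genes mt-Rnr1 and mt-Rnr2, which are not members, did not follow in these poly(A)-selected libraries. How far the selection captured RNA of these genes was not tested. They took 0.301% ± 0.0448 of counts in monocytes (SD, n = 20), from 0.228% to 0.431%. In macrophages they took 0.273% ± 0.0457 (SD, n = 19), from 0.160% to 0.344%. These shares describe sums and carry no test.

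**Figure D1:**
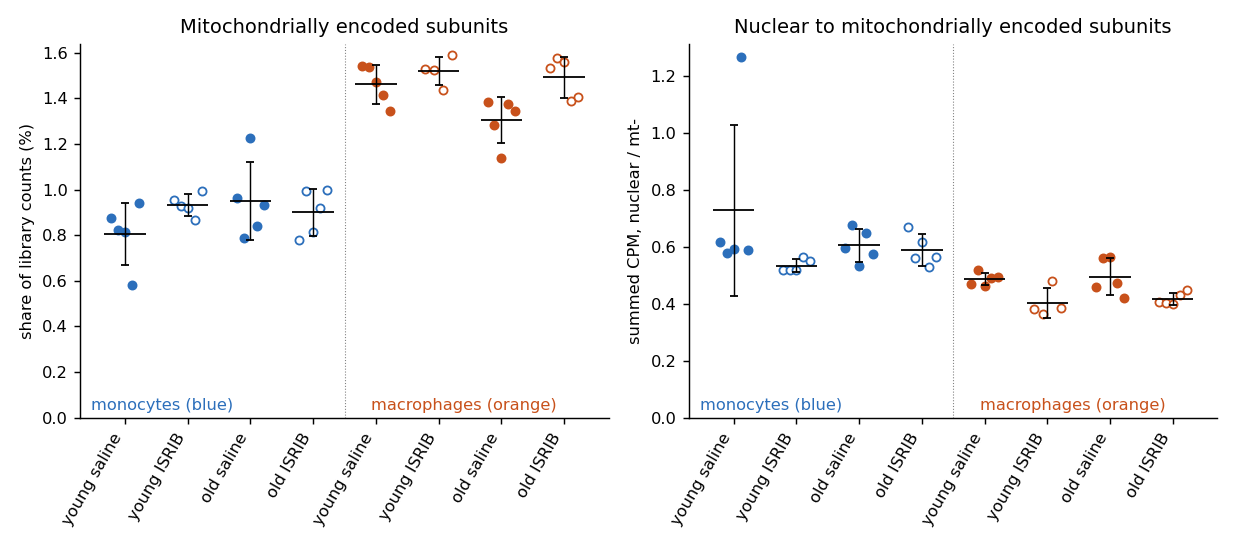
Percent of each library's counts assigned to the mt- genes (y axis), by group (x axis), monocytes in blue and macrophages in orange, with 1 point per library and the mean and SD of each group as bars. The macrophage groups average 1.30% to 1.52% and the monocyte groups 0.806% to 0.950%, and the lowest monocyte point, at 0.580%, is the fourth young saline library.

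Summed over nuclear members, the complexes differed in how far macrophages stood above monocytes. Complex II had the widest separation: its 4 genes summed to 390 ± 31.8 CPM in monocytes (SD, n = 20) and 602 ± 37.5 CPM in macrophages (SD, n = 19). The highest monocyte library had 464 CPM and the lowest macrophage library 546 CPM, so the cell types did not overlap. The macrophage-to-monocyte ratio of complex II was 1.67 in young saline, 1.47 in old saline, 1.5 in young ISRIB and 1.53 in old ISRIB mice. For complex IV these ratios were 1.26, 1.19, 1.26 and 1.20, and for complex V 1.33, 1.15, 1.26 and 1.20. For complex I they were 1.19, 1.01, 1.15 and 1.10, and for complex III 1.12, 1.05, 1.07 and 1.05. Without the fourth young saline monocyte library, the young saline ratios were 1.32 for complex I, 1.65 for II, 1.20 for III, 1.42 for IV and 1.43 for V. The ratio of nuclear to mitochondrial member counts averaged 0.614 ± 0.161 in monocytes (SD, n = 20) and 0.453 ± 0.0578 in macrophages (SD, n = 19). It was 1.27 in the library that stood apart, without which the monocytes averaged 0.580 ± 0.0493 (SD, n = 19).

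**Figure D2:**
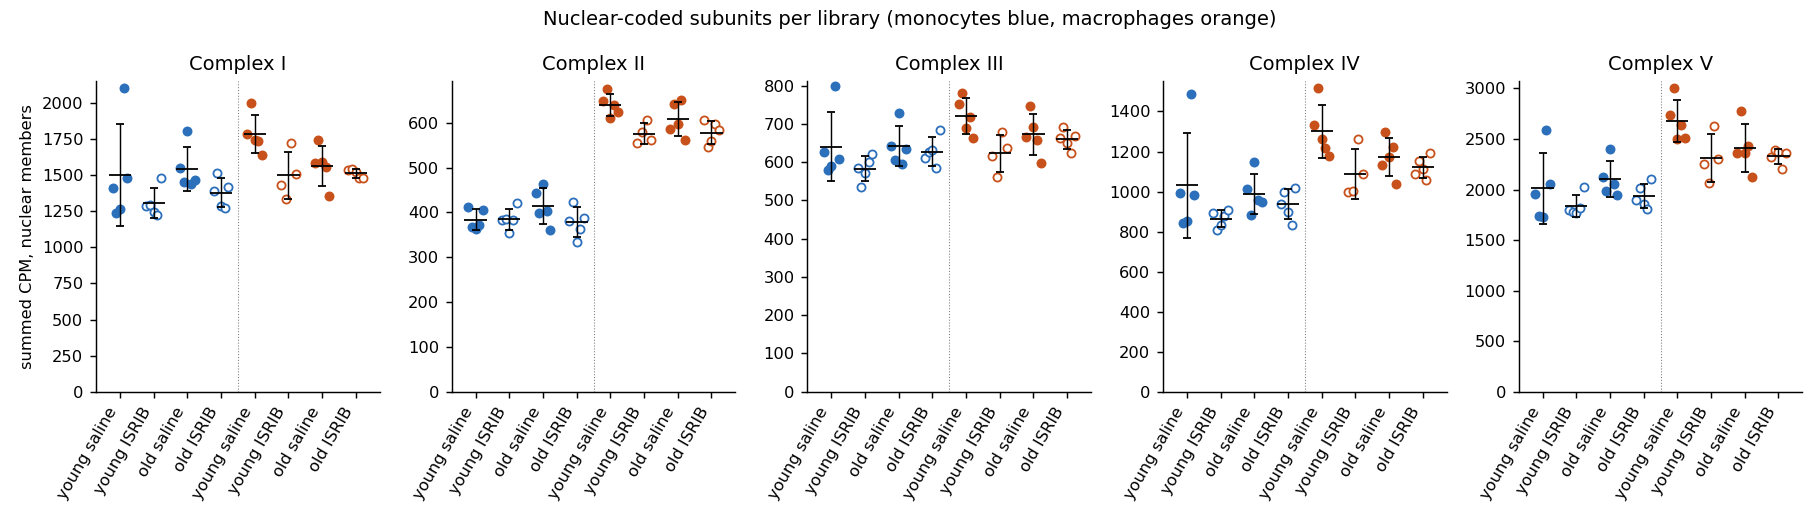
Summed CPM of the nuclear members of each complex (y axis, 1 panel per complex) by group (x axis), with 1 point per library and bars for the mean and SD. In the panel of complex II every macrophage library, at 546 CPM or more, lies above every monocyte library, at 464 CPM or less, and in the panels of the other complexes the clouds overlap.

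Gene by gene, most tested members were higher in macrophages. With edgeR and an adjusted p under 0.05 over all genes, 56 of 86 members were higher and 4 lower in young saline mice, where 60% of all genes tested were called in either direction (31% higher and 29% lower). In old saline mice 46 were higher and 5 lower (57.0% of all genes called, 29.7% higher and 27.3% lower). In young ISRIB mice 58 were higher and 4 lower (57.3%, 29.5% and 27.8%), and in old ISRIB mice 48 and 7 (59.4%, 30.8% and 28.6%). Called in either direction were thus 60, 51, 62 and 55 of 86 members, and few of those were lower. Of all 86, 41 (47.7%) were higher in all 4 comparisons, against 22% of all genes, and 3 (3.49%) were lower in all 4, against 19.7%. The groups did not overlap at all, with macrophages higher, for 32 members in young saline, 18 in old saline, 37 in young ISRIB and 39 in old ISRIB mice (20.9%, 19%, 20.9% and 23.3% of all genes), and with macrophages lower for 3, 7, 4 and 7 members (18.9%, 24.8%, 25.5% and 23.8%). The 4 comparisons share no library, but the mice of all of them differ in cell type and bleomycin alike. The median log2 difference of the 79 nuclear members was 0.48 in young saline, 0.34 in old saline, 0.43 in young ISRIB and 0.35 in old ISRIB mice, that of the 7 mt- genes was 1.01, 0.66, 0.87 and 0.75, and that of all genes tested was 0.01, 0.00, -0.01 and 0.01. Without the fourth young saline monocyte library, 65 members were higher and 4 lower in young saline mice and the nuclear median was 0.63. Leaving out each of the 39 libraries in turn gave 38 to 42 members higher in all 4 comparisons, and 33 were so whichever library was left out. The 8 that were not always so were Cox6b2, Cyc1, Ndufa8, Ndufa9, Ndufb8, Ndufs3, Ndufv1 and mt-Nd5. In the same omissions 1 to 3 members were lower in all 4, and Ndufa6 was so in every one. Beside these differences, markers of other cells also differed. All 9 of 9 markers of mature alveolar macrophages were higher in macrophages, summing to 6762 CPM (4165 to 13295), against 1085 CPM (534 to 2101) in monocytes, most of it Chil3. Of 8 markers of B and plasma cells, the sums were 189 to 216 CPM over the 4 monocyte groups and 13.6, 15.9, 161 and 297 CPM in young saline, young ISRIB, old saline and old ISRIB macrophages, the last above its monocyte group at 198 CPM. Ighm was higher in monocytes (169 against 80.4 CPM), and Igkc (10.1 against 29.4 CPM) and Jchain (1.74 against 5.64 CPM) were lower. The 6 neutrophil markers summed to 173 CPM in monocytes (100 to 393) and 77.4 CPM in macrophages (57.3 to 115), which rests on Mmp8 (161 against 49.0 CPM), whereas S100a8 (4.95 against 25.6 CPM) and Retnlg (0.307 against 1.54 CPM) went the other way. The 8 dendritic cell markers summed to 169 CPM (90.9 to 310) and 83.3 CPM (54.5 to 121), with Flt3 (64.1 against 0.69 CPM) and Cd209a (28.9 against 1.57 CPM) higher in monocytes and Clec9a (2.57 against 9.38 CPM) lower. Epithelial markers summed to 5.73 CPM in monocytes (0.222 to 75.7) and 27.1 CPM in macrophages (16.7 to 39.2), and the highest monocyte value was in an old ISRIB library. Fibroblast markers summed to 4.06 CPM in macrophages and 0.340 CPM in monocytes, with Lum at 0 in both, and muscle and heart markers to 1.97 and 3.16 CPM. The part of these markers in the differences was not tested.

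**Figure D3:**
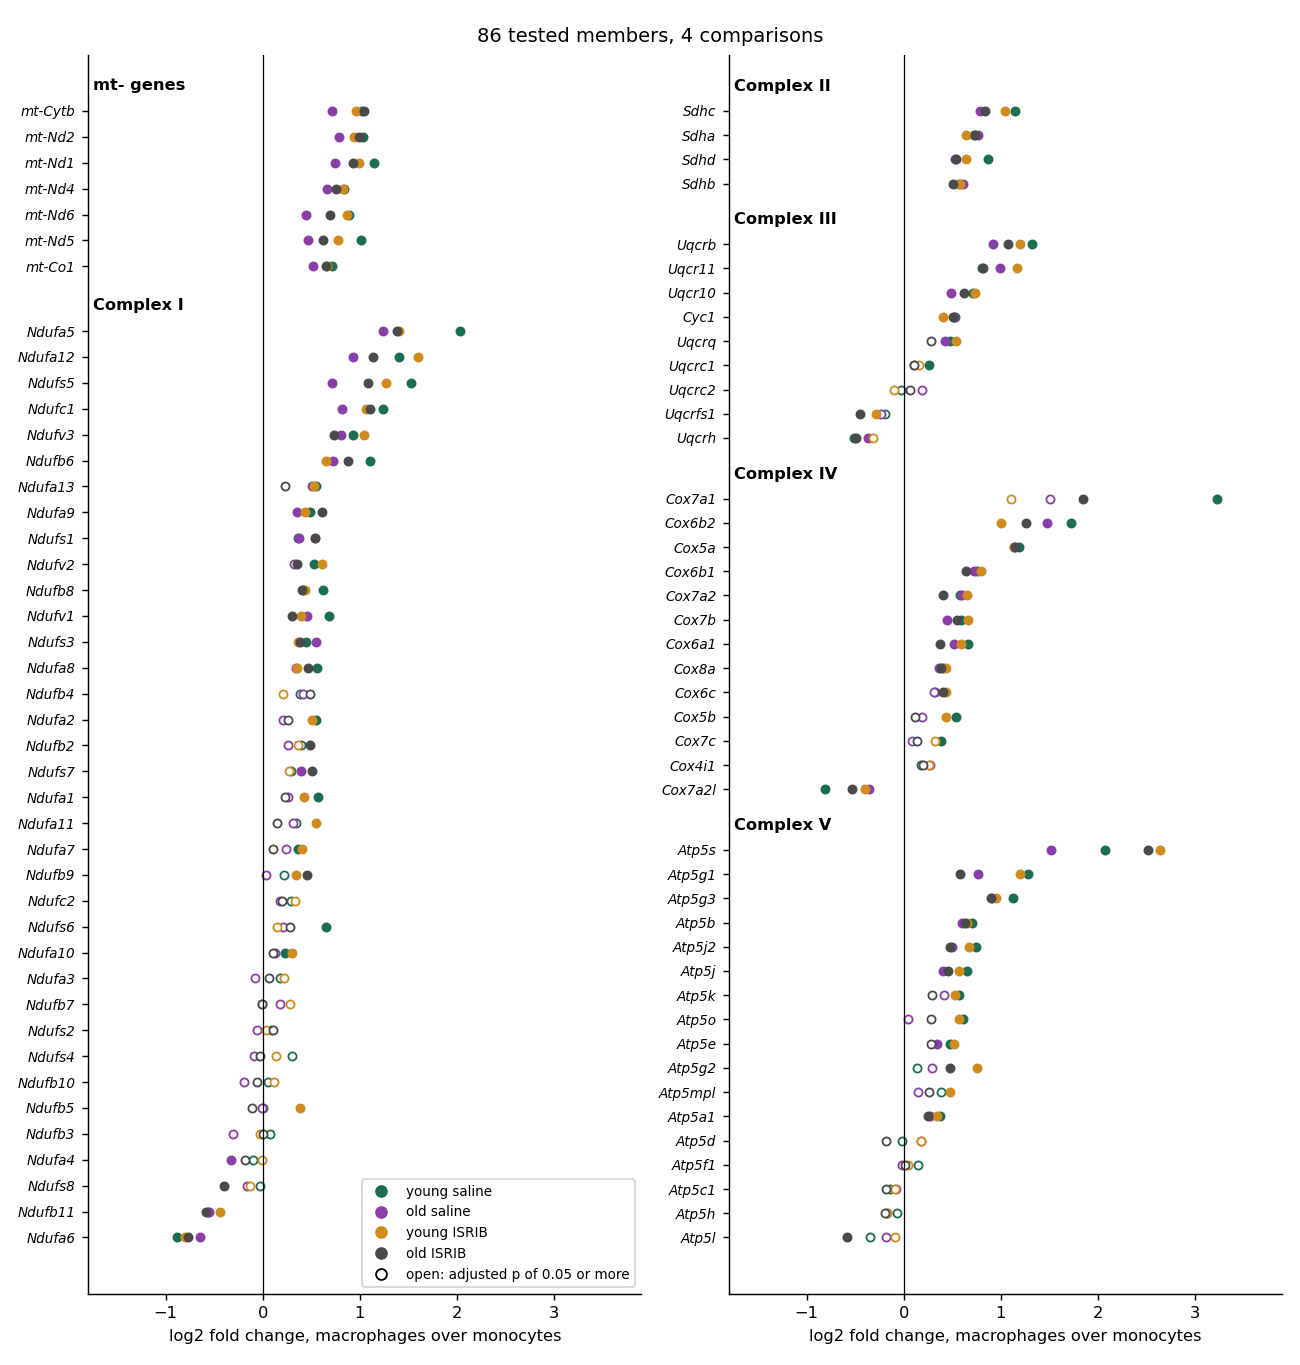
Log2 fold change of each of the 86 tested members, macrophages over monocytes (x axis), in the 4 groups of mice (colours), arranged by complex and by median change (y axis); filled points passed an adjusted p of 0.05 in edgeR and open points did not. All 7 mt- genes and all 4 complex II genes lie to the right of 0 in all 4 groups, whereas Ndufa6, Ndufb11 and Cox7a2l lie to the left.

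All 7 mt- genes tested were higher in macrophages in all 4 comparisons. In young saline mice, mt-Nd1, a core subunit of the membrane arm of complex I, stood at 809, 874, 944, 1012 and 937 CPM in monocytes and at 2104, 2118, 2021, 1850 and 1726 CPM in macrophages. Every macrophage library was above every monocyte library, and the log2 difference was 1.14 ± 0.09 (SE, adjusted p = 2.09e-13). In old saline, young ISRIB and old ISRIB mice it was 0.75, 0.99 and 0.93, with no overlap in any of them. mt-Cytb, which carries the quinone sites of complex III, averaged 1313 ± 183 CPM in monocytes (SD, n = 20) and 2374 ± 267 CPM in macrophages (SD, n = 19), with log2 differences of 0.72 to 1.05. mt-Nd2 rose by 0.78 to 1.03, mt-Nd4 by 0.66 to 0.84 and mt-Nd6, which is coded on the opposite strand, by 0.44 to 0.89. The library kit does not mark strand, so the count of mt-Nd6 may hold RNA of the other strand and is uncertain. mt-Co1 was the most abundant member and had the smallest median difference of the 7: it stood at 4076, 3589, 3592, 2069 and 4358 CPM in young saline monocytes and at 5994, 5623, 5605, 5667 and 5450 CPM in young saline macrophages, a log2 difference of 0.71 ± 0.13 (SE, adjusted p = 1e-05). The monocyte library at 2069 CPM is the one that stood apart, and without it the difference was 0.56. mt-Nd5 stood at 1172, 1101, 1037, 276 and 1306 CPM in young saline monocytes, 276 CPM being the same library, and at 1759 to 2047 CPM in macrophages, a log2 difference of 1.01, or 0.77 without that library. Its call in old saline mice, 0.47 ± 0.20 (SE, adjusted p = 0.044), was lost in 8 of 10 omissions of a single library, with adjusted p up to 0.116.

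The complex I genes of the nucleus were the most mixed set. Of 36 tested, 19 were higher and 2 lower in young saline mice, 14 and 3 in old saline, 21 and 2 in young ISRIB, and 16 and 3 in old ISRIB, with medians of 0.37, 0.26, 0.37 and 0.27. Higher in all 4 were 12 genes: Ndufs1, Ndufs3 and Ndufv1, core subunits of the electron-carrying arm, and Ndufv3, Ndufs5, Ndufa5, Ndufa8, Ndufa9, Ndufa12, Ndufb6, Ndufb8 and Ndufc1, accessory subunits that surround the core. Ndufa5 had the largest difference in young saline mice, from 7.75, 5.32, 7.64, 10.7 and 5.99 CPM in monocytes to 32.1, 35.7, 32.5, 22.9 and 24.2 CPM in macrophages. Its log2 difference was 2.03 ± 0.23 (SE, adjusted p = 8.67e-10), and 1.24, 1.41 and 1.38 in old saline, young ISRIB and old ISRIB mice. The 5 monocyte and 5 macrophage libraries did not overlap. Ndufa12, which is known to join late in assembly, differed by 0.93 to 1.60 and Ndufc1 by 0.82 to 1.24. Ndufs5, whose promoter stretch is shown above, differed by 0.71 to 1.52 at low levels, 3.37 ± 0.69 CPM in monocytes (SD, n = 20) and 7.15 ± 1.99 CPM in macrophages (SD, n = 19). It shares 31.1% of its 50-base words with the pseudogene BC002163, and Ndufa12 shares 17.2% with Gm15920, so both counts are uncertain.

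Ndufa6 and Ndufb11 went the other way. Ndufa6, an accessory subunit near the joint of the arms of complex I, stood at 80.5, 46.5, 52.8, 76.6 and 67.2 CPM in young saline monocytes and at 31.1, 33.1, 40.0, 34 and 33.2 CPM in young saline macrophages. All 5 macrophage libraries lay below all 5 monocyte libraries, and Ndufa6 fell by 0.88 on the log2 scale (SE 0.14, adjusted p = 1.06e-06). In old saline, young ISRIB and old ISRIB mice it fell by 0.65, 0.80 and 0.77. Over all libraries it averaged 63.2 ± 9.0 CPM in monocytes (SD, n = 20) and 35.2 ± 5.45 CPM in macrophages (SD, n = 19), and the lowest monocyte, at 46.5 CPM, lay above the highest macrophage, at 44.3 CPM. Ndufb11, an accessory subunit coded on the X chromosome, fell by 0.56 in young saline mice (SE 0.15, adjusted p = 0.00129) and by 0.59 in old ISRIB mice (SE 0.15, adjusted p = 0.000775). Its highest monocyte value, 121 CPM, was in the library that stood apart, without which the young saline difference was -0.33. In young ISRIB mice its difference of -0.44 (adjusted p = 0.0162) did not pass without the fifth young ISRIB monocyte library (adjusted p = 0.0514), without the third young ISRIB macrophage library (adjusted p = 0.0679) or with offsets for GC content and length (-0.27, adjusted p = 0.131).

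**Figure D4:**
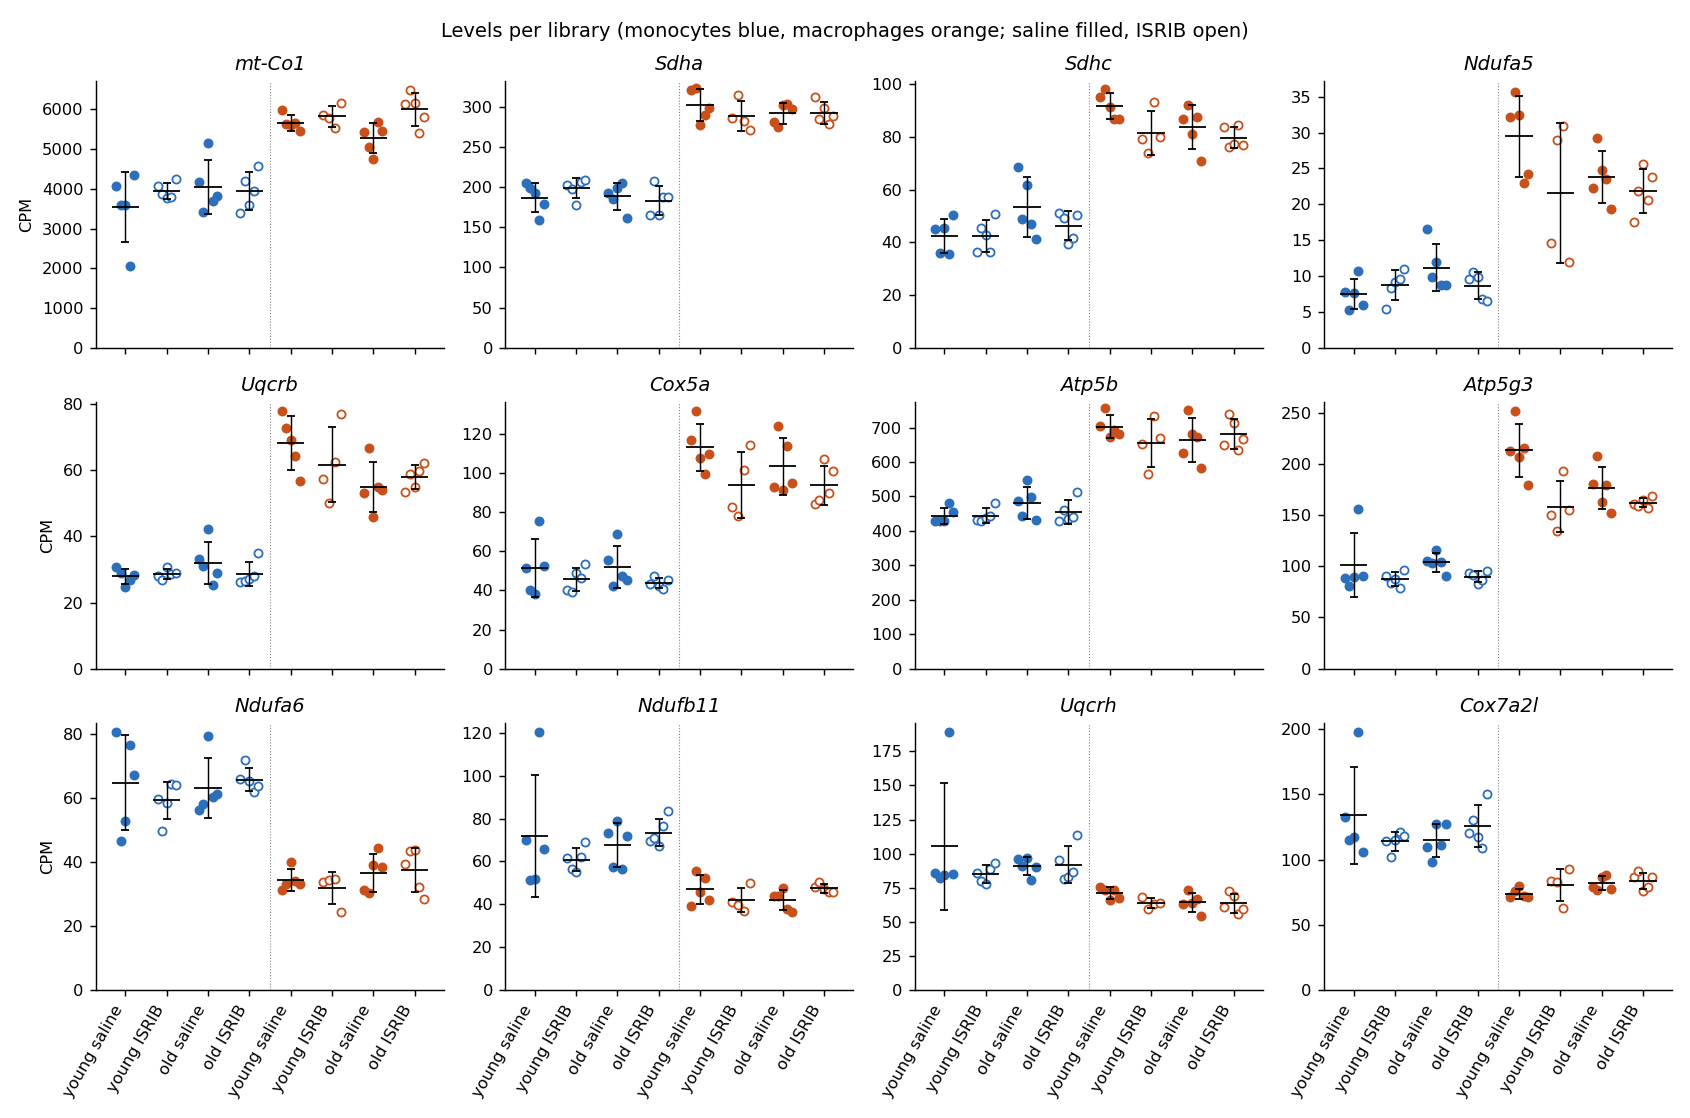
CPM of 12 members (y axis, 1 panel per gene) in every library by group (x axis), monocytes in blue and macrophages in orange, saline filled and ISRIB open, with bars for the mean and SD. In the upper 2 rows the macrophage means lie above the monocyte means, without overlap for Sdha, where monocytes reach 209 CPM and macrophages start at 271 CPM, and in the lowest row they lie below, without overlap for Ndufa6.

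All 4 genes of complex II were higher in macrophages in all 4 comparisons. Sdha codes the flavoprotein that oxidises succinate, Sdhb the iron-sulfur protein that takes up its electrons, and Sdhc and Sdhd the membrane anchors where quinone is reduced. Sdha stood at 205, 199, 193, 158 and 179 CPM in young saline monocytes and at 321, 324, 278, 290 and 298 CPM in young saline macrophages. Its log2 difference was 0.72 ± 0.09 (SE, adjusted p = 5.29e-09) there and 0.77, 0.64 and 0.73 in old saline, young ISRIB and old ISRIB mice. The spread between libraries was small: over all mice monocytes ran from 158 to 209 CPM and macrophages from 271 to 324 CPM, with no overlap. Sdhc differed more, by 1.14 ± 0.12 in young saline mice (SE, adjusted p = 1.7e-10), from 45.0, 36.1, 45.3, 35.5 and 50.2 CPM to 95.2, 98.1, 91.5, 86.9 and 86.7 CPM, and by 0.79, 1.04 and 0.84 in the other mice. Over all libraries it did not overlap either (monocytes to 68.6 CPM, macrophages from 70.8 CPM). Sdhd differed by 0.53 to 0.87 and Sdhb by 0.51 to 0.61. Complex II was the only complex whose nuclear members all passed in all 4 comparisons.

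In complex III, 6 of 9 nuclear members were higher and 1 lower in young saline mice, 5 and 1 in old saline, 5 and 1 in young ISRIB, and 4 and 2 in old ISRIB, with medians of 0.47, 0.43, 0.41 and 0.28. The 4 higher in all were Cyc1, the cytochrome that hands electrons to cytochrome c, and the small subunits Uqcrb, Uqcr10 and Uqcr11. Uqcrb, which binds next to the quinone site, stood at 30.8, 28.9, 24.6, 26.8 and 28.3 CPM in young saline monocytes and at 77.9, 72.8, 69.0, 64.4 and 56.6 CPM in macrophages, a log2 difference of 1.32 ± 0.13 (SE, adjusted p = 2.85e-11). Over all libraries the lowest macrophage, at 45.8 CPM, lay above the highest monocyte, at 42.1 CPM. Uqcrh, the hinge protein that helps cytochrome c dock, lay lower in macrophages. It stood at 85.7, 82.3, 84.0, 189 and 85.2 CPM in young saline monocytes and at 75.6, 73.0, 66.2, 73.0 and 67.1 CPM in macrophages, and it fell by 0.51 (SE 0.14, adjusted p = 0.00214). The value of 189 CPM is the library that stood apart, and without it the difference was -0.23 with an adjusted p of 0.0494. With only the 2 groups compared in the fit, the adjusted p was 0.0581. In old ISRIB mice Uqcrh fell by 0.49 (SE 0.14, adjusted p = 0.00304). Its call in old saline mice (-0.36, adjusted p = 0.0267) was lost without the third monocyte library (adjusted p = 0.0574) and without the third or the fifth macrophage library (adjusted p = 0.0537 and 0.085), and in young ISRIB mice it did not pass (-0.32, adjusted p = 0.0672). Uqcrfs1, the Rieske iron-sulfur protein, was lower in old ISRIB mice, where it fell by 0.45 (SE 0.12, adjusted p = 0.00102).

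In complex IV, 10 of 13 tested nuclear members were higher and 1 lower in young saline mice, 8 and 1 in old saline, 9 and 1 in young ISRIB, and 9 and 1 in old ISRIB, with medians of 0.58, 0.45, 0.59 and 0.40. Cox5a, a matrix-facing subunit, had a near equal difference in the 4 comparisons, 1.18 ± 0.14 in young saline mice (SE, adjusted p = 4.13e-09) and 1.14, 1.14 and 1.15 in old saline, young ISRIB and old ISRIB. It stood at 51.6, 40.5, 38.1, 75.7 and 52.4 CPM in young saline monocytes and at 117, 132, 108, 99.6 and 110 CPM in macrophages. Over all libraries the highest monocyte, at 75.7 CPM, was the library that stood apart, and the lowest macrophage was at 77.9 CPM. Without that library the young saline difference was 1.33. Cox7a2l, which is known to join complexes III and IV into supercomplexes and of which C57BL/6J mice carry a short form, was the member of complex IV that was lower. It stood at 133, 115, 118, 198 and 106 CPM in young saline monocytes and at 71, 75.5, 79.6, 71.8 and 70.9 CPM in macrophages, and it fell by 0.81 (SE 0.12, adjusted p = 4.52e-07). Without the library at 198 CPM it fell by 0.66. In old saline, young ISRIB and old ISRIB mice the differences were -0.35, -0.40 and -0.53, and the one in young ISRIB mice was lost without the third macrophage library (-0.28, adjusted p = 0.0764). It shares 17.7% of its words with the pseudogene Gm6969.

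Several complex IV subunits exist as tissue isoforms, and the sorted cells used mainly the broadly expressed ones. Cox4i1 averaged 267 ± 38 CPM in monocytes (SD, n = 20) and 296 ± 34.2 CPM in macrophages (SD, n = 19), with log2 differences of 0.17 to 0.27, while Cox4i2, known from lung and oxygen sensing, had 4 counts in all monocyte libraries and 5 in all macrophage libraries. The Cox4i1 difference passed in old saline mice alone (adjusted p = 0.034), and there it was lost without any of 5 libraries, with adjusted p up to 0.104. It also passed in young saline mice without the library that stood apart (0.27, adjusted p = 0.0297), and in young ISRIB mice without the first monocyte library (adjusted p = 0.0395) or the first macrophage library (adjusted p = 0.0355). Cox6a1 differed by 0.38 to 0.66 and its muscle form Cox6a2 had 10 and 122 counts. Cox7a2 differed by 0.40 to 0.65, whereas Cox7a1, its form of heart and brown fat, had 122 and 387 counts. Cox7a1 was higher in young saline macrophages, 3.22 ± 0.76 (SE, adjusted p = 0.000405), at 1.67 to 4.35 CPM. In young ISRIB mice its difference of 1.10 (adjusted p = 0.201) turned to -0.27 without the third macrophage library, which held 4.97 CPM, where the other 3 held 0.964, 0.673 and 0.153 CPM. In old ISRIB mice it was 1.85 (adjusted p = 0.0228), and this call was lost without the first or the third monocyte library (adjusted p = 0.0588 and 0.0623) or the third or the fifth macrophage library (adjusted p = 0.0524 and 0.0613). Cox6b1 differed by 0.64 to 0.80 and Cox6b2, known from testis, by 1.0 to 1.72, from 5.16 ± 2.02 CPM in monocytes (SD, n = 20) to 12.4 ± 3.89 CPM in macrophages (SD, n = 19). In young ISRIB mice its call was lost without the first or the third macrophage library (adjusted p = 0.0739 and 0.0851). Cox8b had 16 and 1 counts, Cox7b2 and Cox8c had 0, and Ndufa4l2 had 0 and 1.

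In complex V, 10 of 17 members were higher and 0 lower in young saline mice, 8 and 0 in old saline, 12 and 0 in young ISRIB, and 8 and 1 in old ISRIB, with medians of 0.48, 0.29, 0.53 and 0.29. Atp5b, the catalytic beta subunit, stood at 429, 428, 429, 481 and 455 CPM in young saline monocytes and at 706, 757, 674, 693 and 683 CPM in macrophages. Its log2 difference was 0.70 ± 0.08 (SE, adjusted p = 1.33e-09) and 0.60, 0.66 and 0.63 in the other mice, and over all libraries the highest monocyte, at 549 CPM, lay below the lowest macrophage, at 565 CPM. Atp5a1, the alpha subunit, differed by 0.25 to 0.37. With offsets for GC content and length it lost its call in young saline (0.18, adjusted p = 0.0685), old saline (0.13, adjusted p = 0.196) and old ISRIB mice (0.07, adjusted p = 0.461). The ring that turns in the membrane is built of subunit c, which 3 genes code with the same mature protein. Atp5g3 was higher by 1.13 ± 0.12 in young saline mice (SE, adjusted p = 1.59e-10) and by 0.90 to 0.95 in the others, from 89.0, 80.8, 89.4, 156 and 90.5 CPM to 213, 251, 207, 216 and 179 CPM. Without the monocyte library at 156 CPM, which stood apart, the young saline difference was 1.31. Atp5g1 was higher by 0.58 to 1.28. Atp5g2 passed in young ISRIB mice (0.75, adjusted p = 0.000185) and in old ISRIB mice (0.48, adjusted p = 0.0082), and the second of these calls was lost with no filter on low counts (adjusted p = 0.0579). Atp5s, which is named with the subunits but is a coupling factor outside the core enzyme, differed by 1.52 to 2.64 at a level of 0.950 CPM in monocytes and 4.03 CPM in macrophages. The lower member in old ISRIB mice was Atp5l, a membrane subunit, which fell by 0.58 (SE 0.24, adjusted p = 0.0342). That call was lost without the third or the fifth monocyte library (adjusted p = 0.064 and 0.0906) and without the first or second macrophage library (adjusted p = 0.075 and 0.0846). In young ISRIB mice its difference was -0.09, and 0.027 without the first macrophage library.

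Levels between genes can be set side by side only per length, which is least ambiguous for the mt- genes, whose annotated length is that of a single exon. As CPM per kilobase in macrophages, mt-Co1 stood at 3681, mt-Cytb at 2076, mt-Nd1 at 1992, mt-Nd6 at 1124, mt-Nd2 at 1115, mt-Nd5 at 1011 and mt-Nd4 at 616. The level of mt-Nd4 carries the shared sequence described above. mt-Nd6 (chrM:13552-14070, minus strand) overlaps the end of mt-Nd5 (chrM:11742-13565, plus strand). Without strand marking its level may hold RNA of the other strand, so its place in this order is uncertain. No order of nuclear members is given, because it changes with the transcript whose length is used.

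The ISRIB comparisons asked whether blocking the integrated stress response altered these genes in either cell type. No member was called in old macrophages, where 0% of all genes were called by edgeR, and 10 members and 1112 genes had an unadjusted p under 0.05. DESeq2 called 0 members and 43 of 12171 genes there, and voom called 0 of either. All 7 mt- genes had positive differences, from 0.11 to 0.25 on the log2 scale with a median of 0.16, and 60 of 79 nuclear members were below 0, with a median of -0.10. The mitochondrial share of counts was 1.38%, 1.28%, 1.14%, 1.38% and 1.35% in old saline and 1.53%, 1.58%, 1.56%, 1.39% and 1.41% in old ISRIB macrophages. The groups did not overlap, but they nearly met, with the highest saline library at 1.382% and the lowest ISRIB library at 1.386%. mt-Cytb had the largest mitochondrial difference, 0.25 ± 0.08 (SE, adjusted p = 0.344), with 2304, 2128, 1896, 1997 and 2095 CPM in saline and 2846, 2654, 2760, 2163 and 2210 CPM in ISRIB macrophages. mt-Nd2 was the 1 member whose groups did not overlap, against 0.608% of genes higher without overlap. Other cells' markers moved with treatment in the same libraries: the 9 markers of mature alveolar macrophages summed to 6359 ± 2015 CPM (4223 to 8441) in saline and 9658 ± 3145 CPM (6138 to 13295) in ISRIB libraries (SD, n = 5 each). Most of this sum is Chil3, which averaged 6132 CPM over all macrophage libraries, where the 9 markers summed to 6762 CPM. Chil3 is also a marker of classical monocytes. The 9 markers of monocyte-derived macrophages summed to 25326 ± 4397 CPM (20981 to 32570) and 21355 ± 5193 CPM (15883 to 26798), and 8 markers of B and plasma cells to 161 CPM (21.1 to 413) and 297 CPM (151 to 595). Their part in these values was not tested.

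In young macrophages no member was called either (0% of all genes by edgeR), but 25 of 86 members and 1513 of 12171 genes had an unadjusted p under 0.05. Of 79 nuclear members 74 were below 0, with a median of -0.21, and the 7 mt- genes lay between 0.06 and 0.20 with a median of 0.08. Ndufs6, a zinc-binding subunit of complex I, had the smallest adjusted p. It stood at 37.4, 50.7, 33.4, 38 and 35.7 CPM in saline and at 19, 18.2, 29.7 and 25.7 CPM in ISRIB macrophages, a difference of -0.74 ± 0.15 (SE, adjusted p = 0.0929). Ndufb6, an accessory subunit, stood at 35.7, 36.8, 38, 38 and 30 CPM and at 19.3, 23.7, 26.7 and 22.9 CPM, a difference of -0.60 ± 0.15 (SE, adjusted p = 0.117). It shares 34.1% of its words with Smim27. The ISRIB libraries of both lay below all saline libraries, as did those of Ndufa8, Ndufb7, Sdhd and Cox8a, which made 6 members, against 2.10% of all genes. The third young ISRIB macrophage library had a nuclear-to-mitochondrial ratio of 0.480, where the other 3 ran from 0.364 to 0.384 and the young saline macrophages from 0.463 to 0.519. Without it, 7 members and 304 of 12504 genes were called, among them Ndufs6 (adjusted p = 0.0108) and Ndufb6 (adjusted p = 0.0325). DESeq2 called 4 members and 105 of 12171 genes, edgeR with no filter on low counts 5 members and 224 of 22729 genes, and voom 0 of either. The difference between the ISRIB effects in old and young macrophages was called for 0 members and 0% of genes by edgeR, with 5 members and 621 genes at an unadjusted p under 0.05 and 0 called by DESeq2 or voom. For Ndufb6 that difference was 0.67 (unadjusted p = 0.00275, adjusted p = 0.845).

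Averaged over both ages, 1 member was called in macrophages, against 0.830% of all genes. Atp5j2, a small membrane subunit of complex V, stood at 97.7 to 125 CPM in young saline, 64.9 to 98.1 CPM in young ISRIB, 78.4 to 103 CPM in old saline and 63.4 to 84.5 CPM in old ISRIB macrophages. It fell by 0.32 (SE 0.08, adjusted p = 0.0429). The groups of old mice overlapped, and the call was lost in 14 of 19 omissions of a single library, with adjusted p up to 0.11. The number of members called was 10 without the third young ISRIB library (649 of 12504 genes), 7 without the fifth old saline library (464 of 12087), 5 without the third old saline library (358 of 12082) and 4 without the fifth young saline library (131 of 12133). It was 1 without the fifth old ISRIB library and 0 in the other 14 omissions. Of 79 nuclear members 72 were below 0, with a median of -0.17, and the mt- median was 0.11. In monocytes 0 members were called by edgeR in young mice, in old mice and averaged over both, with 0% of all genes called in each, and 13, 2 and 13 members had an unadjusted p under 0.05, as had 809, 918 and 911 of 12170 genes. The nuclear median in young monocytes was -0.21, and -0.07 without the library that stood apart. In old monocytes it was -0.12, and the mt- medians were 0.16 in young and -0.05 in old monocytes. The difference between ages was called for 0 members in monocytes, with 3 members and 865 genes at an unadjusted p under 0.05. DESeq2 and voom also called 0 members in each of these monocyte comparisons. Of all genes, DESeq2 called 14 of 12170 in old and 0 in young monocytes, and voom 0 in both.

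The age comparisons gave few calls. In saline macrophages 0 members were called by edgeR, against 1.16% of all genes, and 18 members and 1545 of 12171 genes had an unadjusted p under 0.05. DESeq2 called 1 member and 294 genes, and voom 0 members and 103 genes. The 7 mt- genes all lay below 0, with a median of -0.16, and the nuclear median was -0.13. Markers of other cells moved with age in the same macrophage libraries: 8 markers of B and plasma cells summed to 13.6 CPM (6.46 to 29.3) in young and 161 CPM (21.1 to 413) in old saline mice, and to 15.9 CPM (7.62 to 22.5) and 297 CPM (151 to 595) under ISRIB. The 7 markers of T and NK cells summed to 2.48 CPM (1.29 to 3.34) and 7.57 CPM (5.23 to 12.4) under saline. Their part in the age comparisons was not tested. Atp5o, the stalk subunit that confers oligomycin sensitivity, came closest: it stood at 99.3, 120, 107, 89.8 and 78.9 CPM in young and at 78.8, 81.5, 66.2, 60.8 and 56.0 CPM in old saline macrophages, a difference of -0.49 ± 0.13 (SE, adjusted p = 0.0547). The groups overlapped at 78.9 and 81.5 CPM. It passed without the fifth young library (adjusted p = 0.026) and without the first or second old library (adjusted p = 0.0332 and 0.0232), and also with DESeq2, with no filter on low counts, with GC and length offsets and with the replicate number as a block. It overlaps an antisense gene, Gm15976, with which it shares 34.9% of its words, and the library kit does not mark strand, so its count is uncertain. In ISRIB macrophages 0 members were called by edgeR, against 0.937% of all genes, and 4 members and 1485 genes had an unadjusted p under 0.05. DESeq2 called 0 members and 260 genes there, and voom 0 members and 81 genes. Averaged over treatments 1 member was called, against 4.86% of genes: Uqcrc2, a core protein of complex III, was 0.21 ± 0.06 higher in old macrophages (SE, adjusted p = 0.0432). It shares 24.8% of its words with Pdzd9. It stood at 97.1 to 112 CPM in young saline, 88.8 to 101 CPM in young ISRIB, 107 to 137 CPM in old saline and 97.7 to 120 CPM in old ISRIB macrophages, and the call was lost in 12 of 19 omissions of a single library, with adjusted p up to 0.0929. In monocytes 0 members were called by edgeR between ages under saline (0.0247% of genes called), under ISRIB (0%) and averaged over treatments (0.123%). DESeq2 and voom called 0 members as well. Of all genes, DESeq2 called 46 under saline and 22 under ISRIB, and voom 1 in each. With edgeR, 2, 1 and 2 members had an unadjusted p under 0.05, as had 1072, 803 and 1003 of 12170 genes. The nuclear median in saline monocytes was 0.00, and 0.15 without the library that stood apart.

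Genes that work with the complexes were read from lists of assembly factors, carriers and regulators. Their counts stand beside shares of all genes of 31%, 29.7%, 29.5% and 30.8% called higher and 29%, 27.3%, 27.8% and 28.6% called lower in young saline, old saline, young ISRIB and old ISRIB mice. Of 15 tested complex I assembly factors, 9 were higher and 1 lower in young saline macrophages than in monocytes, 5 and 1 in old saline, 6 and 1 in young ISRIB, and 6 and 1 in old ISRIB. The lower gene was Ndufaf7, a methyltransferase of complex I assembly, which fell from 47.6 ± 8.95 CPM in monocytes (SD, n = 20) to 8.72 ± 2.20 CPM in macrophages (SD, n = 19), by 2.58 in young saline mice (SE 0.20, adjusted p = 2.09e-14). Tmem126b, which helps build the membrane arm, was higher by 1.45. Of 24 assembly factors of complexes III and IV, 5 to 7 were higher, a smaller share than that of all genes in each comparison, and 1 or 2 lower, with Uqcc2 up by 0.96 and, in young saline mice, the copper chaperone Cox17 at -0.94 and Surf1 at -0.55. Of 8 for complexes II and V, 4 or 5 were higher and 0 lower, among them Sdhaf2, which attaches the flavin to Sdha, at 0.72. The medians of these 3 lists were 0.71, 0.30 and 0.65 in young saline mice, where that of all genes was 0.01.

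Of 17 genes of the mobile electron carriers, 9, 10, 10 and 10 were higher and 2, 1, 2 and 3 lower in young saline, old saline, young ISRIB and old ISRIB mice. They included both subunits of the flavoprotein that brings electrons from fatty acid oxidation, Etfa (1.14) and Etfb (1.70), and Coq3 of ubiquinone synthesis (2.08), in young saline mice. Of 18 citric acid cycle genes, 12, 8, 9 and 9 were higher and 2 lower in each comparison. Idh3a was higher by 1.53 and Idh2 by 1.13, while Pdha1, of the pyruvate dehydrogenase complex that feeds the cycle, fell by 0.75 (SE 0.10, adjusted p = 1.92e-08). Of 24 genes of mitochondrial transcription and transcript stability, 5, 3, 5 and 9 were higher and 3, 3, 4 and 3 lower, with Fastkd2 at 1.64 and both subunits of the mitochondrial DNA polymerase, Polg (-0.78) and Polg2 (-1.76), lower in young saline mice. Of 9 tested regulators of mitochondrial biogenesis, 2, 1, 1 and 1 were higher and 5, 5, 4 and 3 lower, with medians of -0.46, -0.43, -0.51 and -0.43. In young saline mice Ppargc1b, a coactivator of respiratory genes, was higher (2.15), and Nrf1 (-0.77), Yy1 (-0.53) and Gabpb2 (-0.97), which code 2 of the factors known for binding respiratory gene promoters and a partner of an ETS factor, were lower. NRF1 motifs stood in the promoters of 7 of 29 nuclear members that were higher in all 4 comparisons (24.1%) and of 10 of 37 other tested ones (27%).

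Of 10 genes of the mitochondrial stress response, 6, 6, 4 and 8 were higher and 0 lower, with the chaperones Hspa9 (1.20) and Hspd1 (0.76) and the protease Clpp (1.25) in young saline mice. Among all these lists the genes called between ages or treatments were 3. Atf5, a transcription factor of the mitochondrial unfolded protein response, was higher in old than young saline macrophages (1.40, adjusted p = 0.044) and, averaged, with age (1.01, adjusted p = 0.0163) and with ISRIB (1.02, adjusted p = 0.0429). Its call with age under saline was lost in 7 of 10 omissions of a single library and with voom (adjusted p = 0.145), and its call with ISRIB was lost in 14 of 19. Averaged over treatments, Hspa9 was 0.21 higher in old macrophages (adjusted p = 0.0241), a call lost without the third young saline library (adjusted p = 0.0504) or the fourth young ISRIB library (adjusted p = 0.0685). Ogdh, of the citric acid cycle, was 0.21 higher (adjusted p = 0.0101).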

How the data were processed

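The authors deposited a table of raw read counts per gene for 39 libraries. Per the submitters' processing notes, bcl2fastq 2.19.1, FastQC, Trimmomatic 0.36, STAR 2.6.0 and HTSeq 0.11.2 were used with the mouse build mm10. Not given in the sources used here are the annotation, the strand setting and the handling of reads with several matches. Levels are CPM, counts scaled to 1000000 per library, computed from the deposited counts. Group tests used edgeR 4.0.16 in R 4.3.3 (quasi-likelihood, TMM scaling, filterByExpr with a minimum count of 10 and a minimum total of 15), with Benjamini-Hochberg adjustment over all genes tested and a threshold of 0.05. The macrophage libraries, the monocyte libraries and, for comparisons of cell types, all 39 libraries were each fitted together without covariates. Library totals ran from 4595331 to 16056708 counts, and edgeR's common biological coefficient of variation came to 0.206 (macrophages) and 0.258 (monocytes). The fits were tested on simulated data. Sums over members were described without a test. Gene positions and types came from GENCODE (GRCm38), and shared sequence was counted in words of 50 bases. DESeq2 1.42.0, limma 3.58.1 (voom), other scaling, no filter, the replicate number as a block, GC and length offsets, other sets of libraries and the omission of each library were tried as alternatives. The members and gene lists were chosen with earlier results of these data known. Values were given for the mt- genes, for the called members with the largest change in each direction per complex, for isoform sets, for the called member with the highest level per complex and for up to 5 called genes per list. Genes outside that rule, such as Ndufs6, Ndufb6, Atp5o and genes given for their role, were chosen after their values were seen. The summed level of the classical monocyte markers is not reported here.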

Additional observations from a re-analysis of the deposited data

Results flagged for a closer look

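In 7 of 64 sets of 4 or 5 libraries tested, a single library lay far from the others of its group; chance gives about 1 in 20. Of these, 5 concern the fourth young saline monocyte library. Its nuclear-to-mitochondrial ratio was 1.27, where the other 4 ran from 0.579 to 0.616, and mt-Co1 took 35.7% of its mt- counts, against 43.6% to 46.5%. Its nuclear sums were 2104 CPM for complex I (1234 to 1480 CPM in the others), 799 CPM for complex III (580 to 628 CPM) and 1485 CPM for complex IV (844 to 994 CPM). The other 2 concern the fifth young ISRIB monocyte library, with 1480 CPM for complex I (1226 to 1292 CPM in the others) and 2024 CPM for complex V (1766 to 1813 CPM).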

How the results depend on the processing

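The counts of members called between macrophages and monocytes stayed within 1.5 times under every alternative other than omissions of a library, and under omissions they ran from 56 to 69 in young saline, 46 to 53 in old saline, 50 to 63 in young ISRIB and 49 to 54 in old ISRIB mice. On the log2 scale, the cell-type difference in the mitochondrial share was 0.69, 0.66 to 0.72 under omissions and 0.85 with another denominator. Those of the complex sums ran under omissions from 0.14 to 0.19 (I), 0.61 to 0.64 (II), 0.10 to 0.13 (III), 0.28 to 0.34 (IV) and 0.29 to 0.33 (V). With TMM-scaled CPM they were 0.24 (I), 0.71 (II), 0.19 (III), 0.39 (IV) and 0.39 (V). Each of these values lay above its range under omissions. Called members under ISRIB in young macrophages, 0 in the report, were 4 with DESeq2 (105 of all genes), 5 with no filter on low counts (224 genes) and 0 to 7 under omissions. Averaged over ages they were 1 in the report, 5 with DESeq2 (440 genes), 2 with voom (169 genes), 5 with no filter (640 genes), 0 with all 39 libraries in 1 fit and 0 to 10 under omissions. With age in saline macrophages they were 0 in the report, 1 with DESeq2 (294 genes), 1 with no filter (468 genes), 1 with GC and length offsets (153 genes) and 0 to 1 under omissions. With age averaged over treatments they were 1 in the report, 2 with DESeq2 (819 genes), 0 with voom (494 genes), 2 with no filter (975 genes), 2 with GC and length offsets (653 genes), 0 with all 39 libraries and 0 to 2 under omissions. The causes were not tested. Replicate numbers are shared between groups, but same-numbered libraries did not deviate together (median correlation 0.00 in macrophages and -0.01 in monocytes). With the replicate block the counts were 4 for ISRIB averaged over ages, 1 for age in saline macrophages (180 of 12171 genes) and 0 for age averaged over treatments. For the averaged comparisons with the block, the counts over all genes are not given here, so their member counts lack that background. Of 3217 values of named genes under alternatives, 3062 kept direction and call, 127 lost the call, 26 gained it and 2 reversed: Cox7a1 in young ISRIB mice to -0.27 without the third macrophage library, and Atp5l in young ISRIB mice, which ran from -0.20 to 0.027 under omissions, to 0.027 without the first. Low counts limit Cox7a1, Atp5s and the isoforms near 0.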
